A study of Mus musculus with 6 samples.

Results

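The Hes, Hey and Nrarp genes were followed through 3 pairs of mouse embryoid body cultures that differed by stimulation of the hedgehog pathway. The members were all probe sets of the array whose platform annotation names exactly 1 gene symbol, with that symbol being Hes1, Hes3, Hes5, Hes6, Hey1, Hey2, Heyl or Nrarp. There were 13 such probe sets among 45037 tested, and they covered 8 of the 18193 genes measured. The rule uses gene names and no measured value, although the family was picked with earlier results of these data known. RNA levels were read with Affymetrix arrays for the mouse genome, with 1 array for each of 6 cultures.

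Both groups were neuralized embryoid bodies, suspension aggregates of embryonic stem cells grown so that they take on neural fates. In both, the cells carried a Gli1-FLAG transgene driven by the constitutive Rosa26 promoter, so the control cultures also held this tagged hedgehog transcription factor. After 2 days in suspension the 3 RA cultures were given 500 nM all-trans retinoic acid for 3 days. The 3 Ag1.3 cultures received the same retinoic acid plus Ag1.3 at 50 nM, which activates Smoothened, the transducer of hedgehog signals at the cell membrane. Cultures with the same replicate number were grown in parallel, as the series' design text states, and are called pairs 1 to 3. All cultures came from 1 transgenic stem cell line, so the replicates are not animals or independent lines.

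Notch signalling works between touching cells. A ligand of the Delta or Jagged family on one cell leads to cleavage of the Notch receptor on its neighbour, and the freed receptor fragment enters the nucleus and joins the DNA-binding protein Rbpj to switch on target genes. Some Hes and Hey genes, though not all, are the best known of these targets. They encode repressors of the basic helix-loop-helix (bHLH) class, which in the developing neural tube hold cells as progenitors by keeping proneural bHLH genes low. Hes1 and Hes5 are the main effectors in neural progenitors, Hes3 acts with them early and at the boundary of midbrain and hindbrain, and Hes6 differs from the others in favouring neuronal differentiation. Hey1, Hey2 and Heyl are also known from blood vessels, heart and somites. Nrarp is no bHLH protein but a small ankyrin repeat protein, itself a Notch target, that limits Notch signalling in turn.

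Promoter windows were available for Hes5, Hey2, Nrarp and Hes6, which is 4 of the 8 genes, with 2 windows for Hes6. The windows, from RefSeq on GRCm38.p6, run from 250 bases before to 50 bases after a transcript start. The letters GTGGGAA, the usual core of a site for Rbpj, were searched on both strands and are shown because Hes5 and Hey2, a gene that missed the threshold and one that passed it, both held them. Each of these genes had 2 matches. At least 1 match was present in 6.38% of all 32851 windows, and 2 or more in 0.256%. Nrarp and both Hes6 windows held none, and they also lacked the shorter TGGGAA, which lies within the longer motif and occurs in 25.6% of all windows. The Hes5 window lay inside the span that RefSeq gives the gene (chromosome 4, 154960626 to 154962372), and the Hey2 bases printed lie directly before its gene (chromosome 10, 30832359 to 30842783, minus strand). In the following lines capitals mark GTGGGAA or its reverse complement, and each line reads 5′ to 3′ on the strand of the gene.
Hes5 first match, chr4:154960685-154960714, plus strand: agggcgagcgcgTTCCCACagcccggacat
Hes5 second match, chr4:154960828-154960857, plus strand: tggccgccgagtGTGGGAAcggccgcggcg
Hey2 bases before the start, chr10:30842784-30843033, minus strand: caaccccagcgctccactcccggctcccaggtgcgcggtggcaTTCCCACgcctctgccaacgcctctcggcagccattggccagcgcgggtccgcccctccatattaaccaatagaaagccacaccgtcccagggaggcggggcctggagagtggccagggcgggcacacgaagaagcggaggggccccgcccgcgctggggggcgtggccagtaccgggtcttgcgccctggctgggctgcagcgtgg
Hey2 second match, chr10:30842770-30842799, minus strand: ctgggctgcagcGTGGGAAagaacctccag

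The Hes5 matches began at positions -226 and -83 (where -1 is the last base before the start), the first on the opposite strand and the second on the strand of the gene. In Hey2 the first match began at position -207, on the opposite strand, and the second at position -4, so that it spans the start. The windows of Hes5 and Hey2 were 72.7% and 72% G and C, against a median of 52.7% over all windows, and the share of matches at equal G and C content was not computed. The Gli motif TGGGTGGTC, present in 0.253% of windows, was found in none of the 5 member windows on either strand. The E box CACGTG, a binding motif of bHLH proteins that reads the same on both strands and occurs in 7.15% of windows, was found once, in Nrarp, where it began at position -108. The N box CACNAG, where N is any base, was also searched and occurs in 42.5% of windows. It had 2 matches in Nrarp, 2 in 1 of the Hes6 windows and none in Hes5 or Hey2. These matches describe letters in a window and not binding.

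With Ag1.3, Hey1 and Hey2 rose, and 0 of the 8 genes fell. The Hes genes and Nrarp differed by smaller amounts that did not pass the test over all genes, and Heyl and Hes3 read low. Changes were tested with limma on log2(intensity + 16), with the pair as a block and Benjamini-Hochberg adjustment over all genes at a threshold of 0.05. The 2 genes that rose are 2 of 8, against 1.41% of all genes past the threshold in either direction, 1.08% as higher and 0.324% as lower. In the fit over all probe sets the same 2 genes gave the 2 of 13 member probe sets that passed, against 0.515% of all probe sets, 0.426% as higher and 0.0888% as lower. The median log2 fold change of the 8 genes was 0.33 and that of all genes -0.007. At an unadjusted p under 0.05 there were 5 of 8 members, against 14.9% of all genes.

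**Figure D1:**
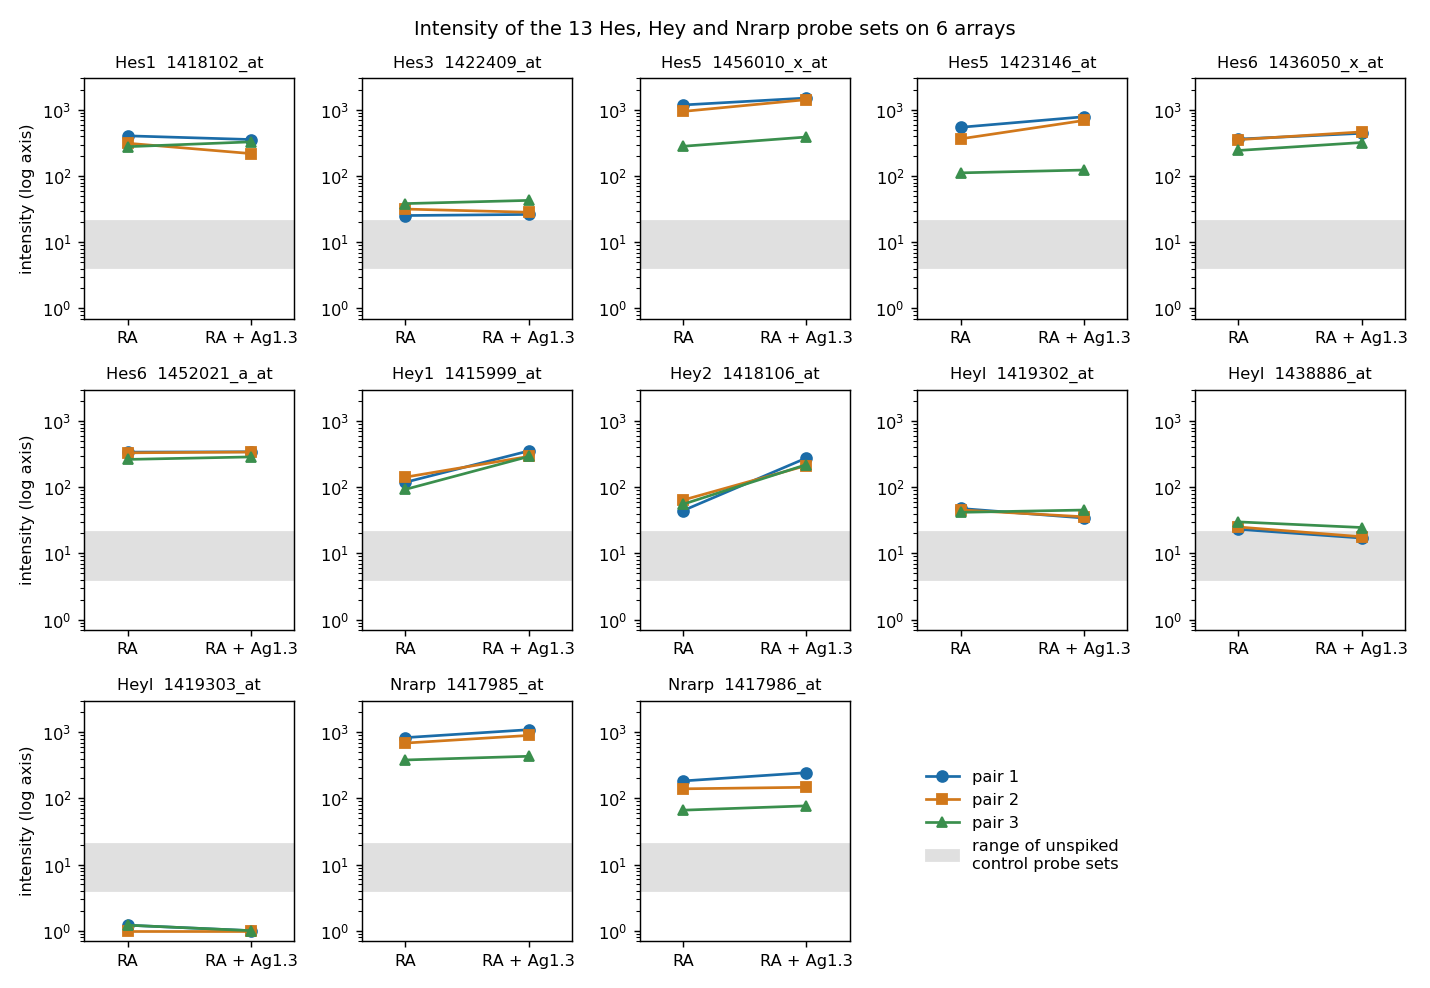
Intensity (log axis) of each of the 13 probe sets in RA and Ag1.3 cultures, with a line for each pair and a grey band from 4.02 to 20.71, where control probe sets without added target lay. The lines of Hey1 and Hey2 rise in all 3 pairs, those of Hes5 and Nrarp are set apart by pair, and 1 Heyl probe set lies at 1 on nearly every array.

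Hey2, a repressor known from heart, arteries and inner ear, had the largest change. Its 1 probe set, 1418106_at, read 44.19, 63.9 and 55.25 in the RA cultures of pairs 1 to 3 and 277.34, 212.88 and 220.17 in their Ag1.3 partners. The lowest Ag1.3 culture was thus above the highest RA culture by a wide margin, and the rise was 6.28-fold, 3.33-fold and 3.99-fold in pairs 1 to 3 on the intensity scale. In limma's test the log2 fold change was 1.84 (SE 0.16) with a 95% confidence interval of 1.45 to 2.24, at adjusted p = 0.0128. The RA values of Hey2 were low, though above the highest unspiked control value, 20.71. Without pair 3 the adjusted p was 0.0796, and without pair 1 or pair 2 it was 0.0277 and 0.0444.

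Hey1, its closest relative among the members, read 118.76, 142.03 and 92.66 in the RA cultures of pairs 1 to 3 and 354.58, 292.89 and 291.85 in their Ag1.3 partners. Again all 3 Ag1.3 cultures lay above all 3 RA cultures. The 3 rises were 2.99-fold, 2.06-fold and 3.15-fold, and the log2 fold change was 1.31 with SE 0.13 (limma, adjusted p = 0.0179). Without pair 1 or pair 3 the adjusted p was 0.0849 or 0.0844, with log2 fold changes of 1.24 and 1.21, and without pair 2 it was 0.0316 with 1.48. Hey1 and Hey2 were the 2 of 13 member probe sets whose groups did not overlap. Among all probe sets, 5.8% had every Ag1.3 value above every RA value and 5.42% had every one below, and among all genes these shares were 6.44% and 5.37%.

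Heyl, the third Hey gene, did not pass the test in either direction. Probe set 1419302_at read 47.79, 45.38 and 41.77 in RA and 34.26, 35.78 and 45.26 with Ag1.3, a log2 fold change of -0.17 (SE 0.11, adjusted p = 0.545) with an interval of -0.44 to 0.10. The dimmer probe set 1438886_at read 23.16 to 29.95 in RA and 17.07 to 24.63 with Ag1.3, lower in 3 of 3 pairs, with 2 of its 6 values in the range of the unspiked controls. The last Heyl probe set, 1419303_at, stood at 1 to 1.21 on all 6 arrays and gives no measurement. The log2 change of Hey2 exceeded that of Heyl by 2.63, 1.76 and 1.64 in pairs 1 to 3, and that of Hey1 exceeded it by 1.80, 1.21 and 1.42. With 3 pairs an exact sign-flip permutation test cannot give a two-sided p below 0.25, so such differences between genes are given by pair and were not tested.

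**Figure D2:**
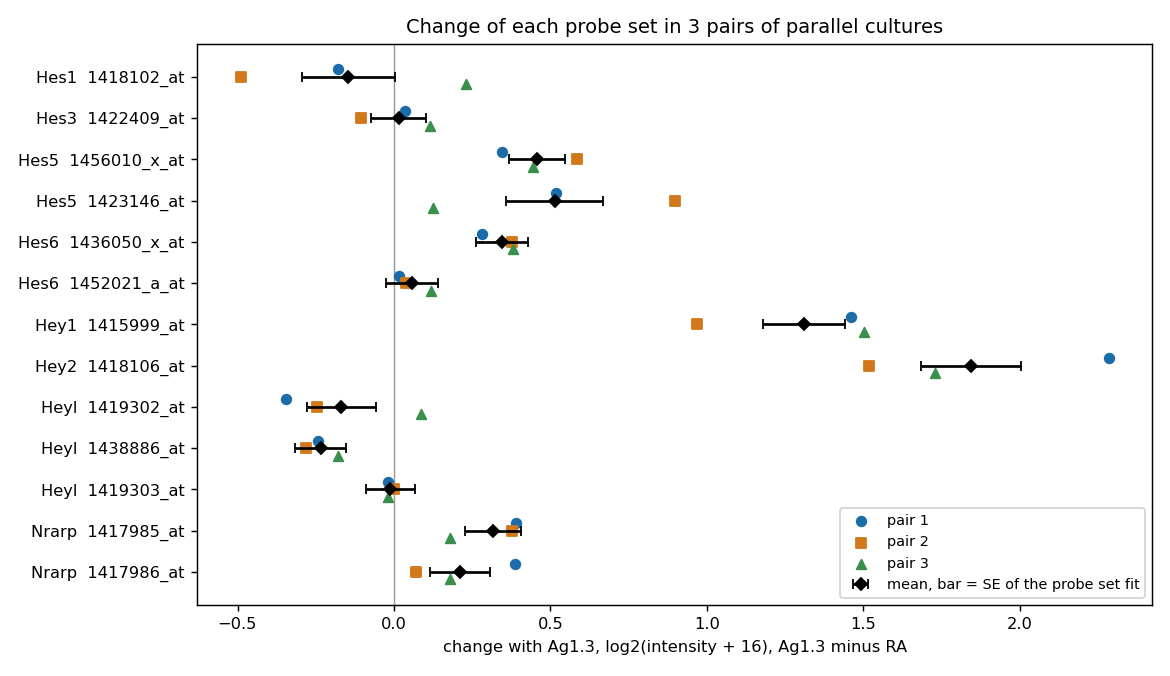
Change with Ag1.3 of each probe set on the log2(intensity + 16) scale, with coloured points for the 3 pairs and a black diamond with the SE of the fit for their mean. Hey2 at 1.84 and Hey1 at 1.31 stand to the right of all other probe sets, whose means run from -0.23 to 0.51.

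Hes5, the Notch effector most typical of neural progenitors, was higher with Ag1.3 in 3 of 3 pairs and missed the threshold. Its brighter probe set, 1456010_x_at, read 1190.62, 951.01 and 282.52 in the RA cultures of pairs 1 to 3 and 1516.24, 1434.74 and 390.36 in their Ag1.3 partners. The groups overlapped broadly, because pair 3 was low under both treatments, yet each Ag1.3 culture read above its own RA partner, by 1.27-fold, 1.51-fold and 1.38-fold. The log2 fold change was 0.46 (SE 0.08), with an interval of 0.25 to 0.67 (limma, adjusted p = 0.081), and 0.929 was the adjusted p without the replicate block. An ending of _x_at marks a probe set with probes that may also bind other transcripts. The other probe set, 1423146_at, gave 547.5, 365.8 and 112.01 in RA and 790.53, 695.33 and 123.64 with Ag1.3, a log2 fold change of 0.51 in the fit over all probe sets (SE 0.16, adjusted p = 0.303). Both probe sets therefore had the same sign in every pair and the same low pair 3.

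Hes1, which acts beside Hes5 in neural progenitors and is also expressed in many other tissues, gave no such order. It read 406.64, 314.3 and 278.56 in the RA cultures of pairs 1 to 3 and 357.47, 219.15 and 329.78 in their Ag1.3 partners. It was lower with Ag1.3 in pairs 1 and 2 and higher in pair 3. The log2 fold change was -0.15 (SE 0.15), with an interval of -0.51 to 0.22 (limma, adjusted p = 0.715), an interval that reaches from a moderate fall to a small rise, and without pair 2 the value was 0.03. With its brighter probe set the change of Hes5 exceeded that of Hes1 in 3 of 3 pairs, where Hes1 minus Hes5 was -0.52, -1.08 and -0.21 on the log2 scale. With 1423146_at this held in pairs 1 and 2 only, since in pair 3 Hes5 changed by 0.125 and Hes1 by 0.231.

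Hes6, the member that favours neuronal differentiation, was higher in 3 of 3 pairs with both of its probe sets, by different amounts, and did not pass. The ending of 1436050_x_at marks probes that may also bind other transcripts. With that probe set Hes6 read 362.99, 355.54 and 244.19 in RA and 444.07, 466.56 and 322.3 with Ag1.3. It was higher in each of the 3 pairs, with a log2 fold change of 0.35 (SE 0.08, adjusted p = 0.117). With 1452021_a_at, which reads several transcripts of the same gene by its ending, it was 339.93, 331.66 and 263.63 in RA and 343.77, 341.03 and 287.64 with Ag1.3. That is a log2 fold change of 0.06 (SE 0.08), at adjusted p = 0.851 over all probe sets. Which of the probe sets follows Hes6 more closely is not given in the sources used here.

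Hes3, a gene of the earliest neural progenitors and of the midbrain and hindbrain boundary, was close to background. It read 25.36, 31.77 and 38.43 in RA and 26.35, 28.42 and 42.97 with Ag1.3, just above the range of the unspiked controls. Its log2 fold change was 0.02 (SE 0.08), with an interval of -0.19 to 0.22 (limma, adjusted p = 0.957). Of 7 measured markers of the midbrain and hindbrain boundary, 3 had no value above the range of those controls on any array, and En2, a homeobox gene of that region, fell from 149.9 ± 42.3 to 51.55 ± 11.5 (SD, n = 3 each, adjusted p = 0.0104).

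Nrarp, the feedback inhibitor, was higher in 3 of 3 pairs with both of its probe sets and did not pass. The brighter one, 1417985_at, read 829.64, 686.01 and 380.86 in the RA cultures of pairs 1 to 3 and 1093.27, 895.75 and 433.45 in their Ag1.3 partners. Each Ag1.3 culture was above its partner, by 1.32-fold, 1.31-fold and 1.14-fold, while the groups overlapped. The log2 fold change was 0.32 (SE 0.08), with an interval of 0.11 to 0.52 (limma, adjusted p = 0.171). The dimmer probe set, 1417986_at, gave 183.52, 139.54 and 66.33 in RA and 244.82, 147.28 and 77.13 with Ag1.3, a log2 fold change of 0.21. When arrays were scaled to their hybridization spikes, the log2 fold changes were smaller, 0.27 for Hes5, 0.16 for Hes6 and 0.13 for Nrarp, and the last 2 had an unadjusted p of 0.165 and 0.262. Over all members, 8 of 13 probe sets were higher in 3 of 3 pairs and 1 was lower in all, against 15.5% and 17.7% of all probe sets. These 8 are not independent, since Hes5, Hes6 and Nrarp enter with 2 probe sets each, beside Hey1 and Hey2. They include Hes6 probe set 1452021_a_at, with rises of only 0.015, 0.038 and 0.119 on the log2 scale in pairs 1 to 3.

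Hes5 and Nrarp varied more between pairs than with the treatment. A moderated F test of the pair term in the same fit, added after the values were seen, was past the threshold for 2 of 8 member genes, Hes5 (adjusted p = 0.0257) and Nrarp (adjusted p = 0.0282), against 2.33% of all genes. Pair 3 was the low one. Relative to the mean of pairs 1 and 2, Hes5 in pair 3 was at -1.86 on the log2 scale in the RA culture and at -1.88 in the Ag1.3 culture with its brighter probe set, and at -1.86 and -2.44 with the other. Nrarp was at -0.96 and -1.16 with its brighter probe set. Hes6 was at -0.53 and -0.48 and did not pass (adjusted p = 0.0745). Hey2, by contrast, was at 0.04 and -0.13, and the pair term had adjusted p = 0.975 for it. The count of member genes that differed between pairs was 0 without pair 1 and 0 without pair 3, and 2 without pair 2. Over all 18193 genes the counts were likewise 0 without pair 1 and 0 without pair 3, and 463 without pair 2.

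**Figure D3:**
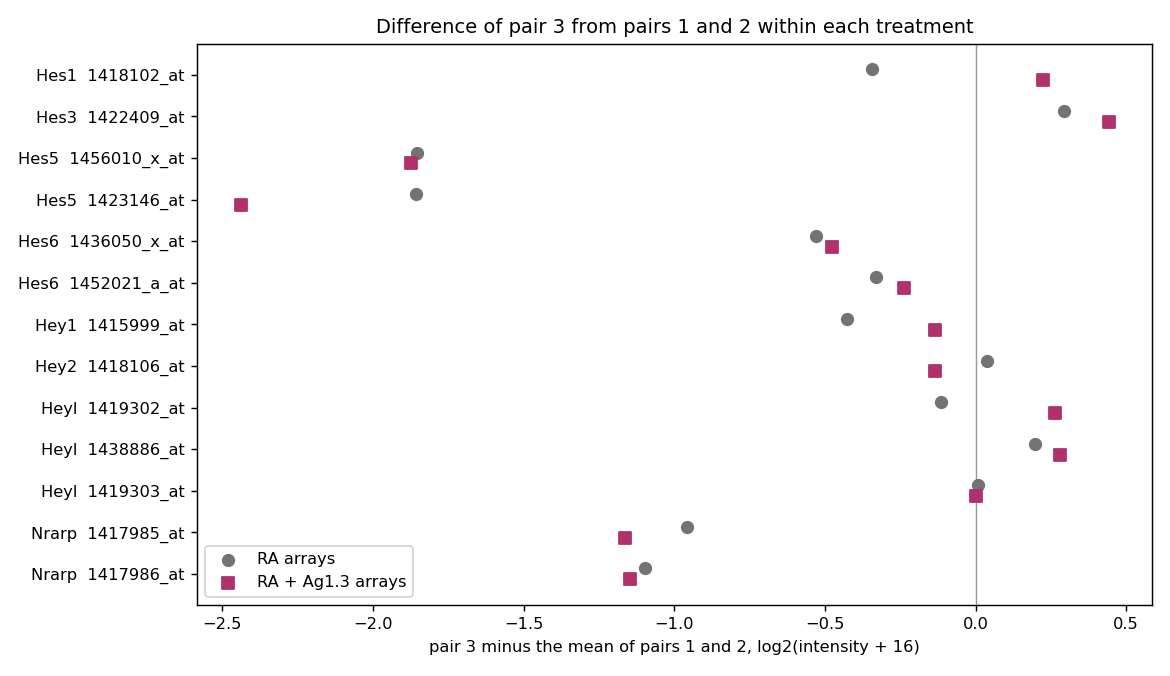
Difference of pair 3 from the mean of pairs 1 and 2, on the log2(intensity + 16) scale, for each probe set in RA cultures (grey circles) and Ag1.3 cultures (squares). Both Hes5 and both Nrarp probe sets lie at about -1 or lower under both treatments, while Hey2 lies near 0.

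Some markers of other cell types moved with pair 3 as well. The summed intensity of 10 neural progenitor markers was 15300, 13770 and 10450 in the RA cultures of pairs 1 to 3 and 15030, 13900 and 12170 with Ag1.3. Bright genes weigh most in such sums, here Vim at 4230 ± 1115 in RA (SD, n = 3). The pair term passed for 4 of the 10, Sox3, Nes, Pax6 and Vim, all lower in pair 3 under both treatments. Sox2 was at -0.05 in RA and 0.04 with Ag1.3 in pair 3, and Fabp7 was higher there, at 0.53 and 1.02. The summed intensity of 8 pluripotency markers ran the other way, at 5219, 7646 and 8699 in RA and 3292, 4816 and 6712 with Ag1.3. For 8 endoderm markers the sums were 511.2, 611.1 and 1113 in RA and 323.3, 368 and 791.3 with Ag1.3, and 10 neuron markers summed to 3715, 3125 and 2024 in RA. The endoderm sum came mostly from Krt8, Epcam and Sox17, the 3 of that list for which the pair term passed. In pair 3 Gata4 was at 0.04 in RA and 0.18 with Ag1.3, and the dim Afp at -0.19 and 0.10, so the sum does not stand for the whole list. Neural progenitor markers were detected, among them Sox2 at 2769 ± 113.5 in RA and 2586 ± 108.5 with Ag1.3 (SD, n = 3 each), and so were pluripotency markers, among them Pou5f1 at 347.7 ± 125.5 and 215.3 ± 97.6. Detection alone does not tell cell types apart, since only 2693 of 18193 genes had no value above the range of the unspiked controls. The part of cell composition in the low Hes5 and Nrarp of pair 3 was not tested. In whole cultures, fewer cells of a type and less RNA per cell cannot be told apart.

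Among the genes that stand upstream of Hes and Hey, 3 of 47 rose with Ag1.3 and 0 fell, with 13 of 47 at an unadjusted p under 0.05 and a median log2 fold change of 0.06. These 47 were the measured genes of 6 lists of the Notch pathway. The 3 were Dll3, a divergent ligand that acts mainly within the cell, the receptor Notch1, and the glycosyltransferase Mfng, each 1 of the list it belongs to. Mfng, which adds sugars to Notch and so alters its response to ligands, had a log2 fold change of 1.52 (SE 0.12, adjusted p = 0.0103), Dll3 0.93 (SE 0.08, adjusted p = 0.0133) and Notch1 0.66 (SE 0.08, adjusted p = 0.0364). In the 7 ligand genes the median was 0.09, and Dll1, the main Delta ligand of the neural tube, read 527.2 ± 215 and 578 ± 199.8 (SD, n = 3 each) with adjusted p = 0.531. In the 4 receptors the median was 0.11, and in the 5 genes of Notch glycosylation it was 0.02.

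Further down the pathway no gene passed. Of 12 genes of receptor cleavage and ligand endocytosis 0 passed in limma's test, while 4 lay at an unadjusted p under 0.05, with Adam10, the protease of the first ligand-induced cut, at 0.31 (unadjusted p = 0.0128) and Mib1, which drives ligand endocytosis, at 0.25 (unadjusted p = 0.0166). Of 10 genes of the nuclear complex 0 passed in limma's test, while 1 lay at an unadjusted p under 0.05, the acetyltransferase Kat2b at -0.28. The coactivator Maml2, next by p, had no value above the range of the unspiked controls. Rbpj itself read 1057 ± 77.5 and 1030 ± 54.8 (SD, n = 3 each), a log2 fold change of -0.04 with SE 0.08. Of 9 antagonists and turnover genes 0 passed in limma's test, while 4 lay at an unadjusted p under 0.05, with Fbxw7, a ubiquitin ligase component that removes active Notch, at 0.34 (unadjusted p = 0.00454) and Numbl at 0.31 (unadjusted p = 0.00821). The pair term was past the threshold for the ligands Dll1 and Dll3, the glycosyltransferase Lfng and the turnover gene Dtx4. All 4 were lower in pair 3 under both treatments, Lfng by the most, at -1.64 in RA and -1.27 with Ag1.3.

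Proneural bHLH genes, the class that Hes and Hey proteins repress, rose in 3 of 9 cases. Neurog2 rose with a log2 fold change of 3.59 (SE 0.345, adjusted p = 0.0179), Neurod4 with 2.57 (adjusted p = 0.00293) and Neurod1 with 1.13 (adjusted p = 0.0103). The list's median was 0.14. Neurog1, a close relative of Neurog2, read 501.6 ± 243.7 and 605.6 ± 300.5 (SD, n = 3 each) with adjusted p = 0.202. The pair term passed for 3 of the 9. In pair 3 Neurog1 was at -1.35 in RA and at -1.41 with Ag1.3, and Neurod1 at -0.87 and -1.11, while the dim Neurog3 was higher there, at 0.96 and 0.93. The pair term did not pass for Neurog2, which in pair 3 was at -0.01 in RA and at -1.68 with Ag1.3. Its Ag1.3 values were thus spread widely, at 897.8 ± 531.6 (SD, n = 3).

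**Figure D4:**
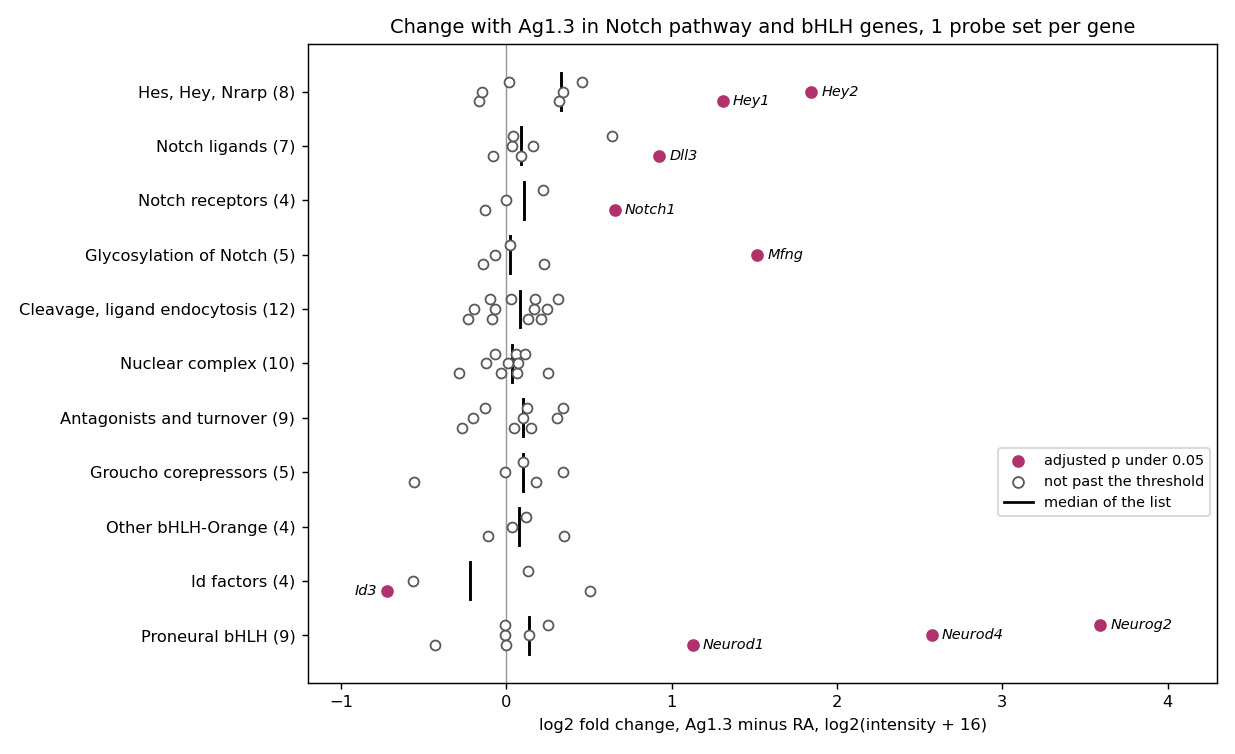
Log2 fold change of each measured gene with Ag1.3, on the log2(intensity + 16) scale, by list, with the number of genes in brackets, filled points for genes past the threshold and a black bar for the list's median. Beside Hey1 and Hey2 the filled points to the right are Dll3, Notch1, Mfng, Neurod1, Neurod4 and Neurog2, and the 1 to the left is Id3.

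Markers of several cell types rose with Ag1.3 beside Hey1 and Hey2. Of 7 floor plate markers 3 rose, Spon1, Foxa2 and Shh, and the summed intensity of the list went from 1051 to 1261 in RA to 1986 to 3055 with Ag1.3. Of 7 motor neuron markers 4 rose, Isl1, Slc18a3 and Lhx3 first among them, with sums of 232.2 to 294.5 and 1319 to 2125. Of 10 neuron markers 7 rose, led by Elavl4, Stmn2 and Nefm, with sums of 2024 to 3715 and 6327 to 9084. The part of these cell types in the rise of Hey1 and Hey2 was not tested.

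The non-neural tissues in which Hey genes are best known gave few changes. Of 10 endothelial markers 0 passed in limma's test, while 3 lay at an unadjusted p under 0.05, Kdr at 0.57 and Pecam1 and Erg at -0.37, with the Ag1.3 mean of Erg, 10.8, in the range of the unspiked controls. Their sums overlapped, at 288 to 360.1 in RA and 322.5 to 335.2 with Ag1.3, and for 2 of the 10, Tie1 and Emcn, no value exceeded the range of the unspiked controls. Of 8 markers of mural cells and smooth muscle 0 passed, while 2 lay at an unadjusted p under 0.05, Tagln and Pdgfrb, both below 0, and of 7 cardiac markers 0 passed, with 0 at an unadjusted p under 0.05 and Tbx5 at -0.17 and Nkx2-5 at 0.10 lowest in p. Of 8 markers of presomitic mesoderm, where Hes and Hey genes cycle, and of somites, Uncx fell and the other 7 did not pass. The Ag1.3 mean of Uncx, 6.19, lay in the range of the unspiked controls. Tbx6 at -0.253 and Tbx18 at -0.455 lay at an unadjusted p under 0.05, and Tbx18 had no value above that range.

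The genes whose profile over the 6 arrays was most like that of Hey1 or Hey2 were found among 9090 genes brighter than the median gene. Likeness was the root mean square difference of log2 profiles, each centred on its own mean, and serves as a description only. The profile of Hey1 was nearest to Slit2, an axon guidance ligand, at 0.104, then to Crmp1 at 0.131 and St18 at 0.133. Slit2 read 208.04, 215.97 and 162.8 in RA and 606.36, 502.31 and 563.35 with Ag1.3. Nearest to Hey2 were Shisa3 at 0.166, Cbln1, a secreted organiser of synapses, at 0.175, and Slit3, another guidance ligand, at 0.231. All 6 of these genes had passed the threshold themselves, with log2 fold changes between 1.25 and 1.90, and they share the arrays and the contrast with the members.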

How the data were processed

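The authors deposited 1 intensity per probe set and array on a linear scale, with a summary method, software and scaling not given in the sources used here. Per the labels' protocols, RNA came from a mirVana extraction and was labelled by in vitro transcription. Array medians ran from 48.68 to 52.55. Of 45101 probe sets 64 controls were left out. Each of 18193 genes was represented by its probe set of highest mean among the 34945 with 1 symbol. Intensities were taken as log2(intensity + 16), which understates the change of dim genes, and tested two-sided with limma 3.58.1 in R 4.3.3 (lmFit, eBayes), once over genes and once over all 45037 probe sets. The tests were checked on simulated data. SE is limma's moderated standard error.

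The series' design text pairs cultures by number. Over 11441 genes, deviations of cultures from their group's mean correlated at 0.736, 0.335 and 0.727 within pairs and at -0.694 to 0.182 between them. The deviations of a gene cancel out within a group of 3, so positive values within pairs force lower ones between pairs. The contrast is therefore partly built in. In the blocked fits the level of each pair is taken out. P-values there rest on how far the change within a pair varied across 3 pairs of 1 line, moderated over all genes. Hybridization spikes read 0.19 higher on the log2 scale in Ag1.3 arrays, and values were not scaled to them.

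Each member was named with all its probe sets. From each of 25 gene lists up to 3 genes with the smallest adjusted p past 0.05 were named, and otherwise the 2 lowest in p. Map positions of motifs, summed intensities and single genes beyond this rule were chosen after the values were seen. The members and lists were chosen with earlier results of these data known. Of the listed genes 13 had no probe set with that symbol alone and were not analysed here.

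Alternatives were no replicate block, other pseudocounts (1, 4, 64), quantile normalization, scaling to the spikes, a filter on dim probe sets, the mean of a gene's probe sets, a mean-variance trend and leaving out each pair. The test between pairs and its alternatives were added after seeing the data.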

Additional observations from a re-analysis of the deposited data

How the results depend on the processing

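The calls of Hey1 and Hey2 depended on the pseudocount and on single pairs, while their direction held under all 12 alternatives. Log2 fold changes ran from 1.06 to 1.48 for Hey1, past the threshold in 8 of 12 (adjusted p 0.0001038 to 0.139), and from 1.34 to 2.11 for Hey2, past it in 9 of 12 (7.864e-06 to 0.13). Hes5, Hes6 and Nrarp each passed in 3, with a pseudocount of 64, without dim probe sets and with a trend, and did not pass in the other 9. With spike scaling they fell to 0.271, 0.162 and 0.129, and with the mean of probe sets Hes6 was 0.201. Of 8 member genes, 0 passed with a pseudocount of 1 or 4 (5 at an unadjusted p under 0.05 in limma's test with each), 5 in those 3 settings, and 0 to 2 without a replicate. Of the member probe sets, 0 passed with a pseudocount of 1, 0 with 4, 4 with 64, 4 without dim probe sets, 5 with a trend and 0 without any 1 replicate.

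Over all genes, 256 were past the threshold and 77% of them higher. Without the replicate block there were 87, with pseudocounts of 1, 4 and 64 there were 0 (2412 at an unadjusted p under 0.05 in limma's test), 19 and 819 (56.7% higher), with spike scaling 1666 (17.2% higher), without dim probe sets 952 (52.2%), with a trend 888 (57.8%), and 40 to 68 without a replicate. Of all probe sets 232 passed, 82.8% of them higher. Without the block there were 108, with those pseudocounts 0, 0 (4601 and 4856 at an unadjusted p under 0.05 in limma's test) and 839 (63.6% higher), with spike scaling 1539 (24.2%), without dim probe sets 1155 (56.2%), with a trend 1118 (62.2%), and 0 to 12 without a replicate. Spike scaling moved the median of all genes to -0.157 on the log2 scale. The replicate block changed no call of a member.

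Between pairs, 423 genes differed. There were 0 with a pseudocount of 1 (2993 at an unadjusted p under 0.05 in limma's test), 0 with 4 (3188), 1481 with 64, 1463 with spike scaling, 1616 without dim probe sets, 1621 with a trend and 0 to 463 without a replicate. Of the members 0 differed with pseudocounts of 1 or 4, and 0 to 2 without a replicate. Values that changed sign were Hes1, which ran from -0.334 to 0.026 without a replicate, Hes3, at -0.112 with spike scaling and from -0.035 to 0.075 without a replicate, and Hes6 probe set 1452021_a_at, at -0.125 with spike scaling. Where no construction of the setting shows it, the cause was not tested. Probe sets near background, such as Hes3 and Heyl, limit what can be read from their folds.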

Other observations

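Of 4 Id genes, whose products block bHLH proteins by binding them without DNA contact, Id3 fell from 1043 ± 43.8 to 625.5 ± 6.28 (SD, n = 3 each), a log2 fold change of -0.72 with SE 0.07 (limma, adjusted p = 0.0204). Id2 read -0.57 and Id4 0.51 on that scale, with adjusted p of 0.182 and 0.223. The Groucho family includes the corepressors through which Hes proteins silence genes. Of 5 measured genes of this family, 0 passed in limma's test, while 2 lay at an unadjusted p under 0.05. These were Tle6 at -0.56 and Tle3 at 0.34. Of 4 further repressors of the Hes type, 0 passed and 0 had an unadjusted p under 0.05, and Hes7, which cycles in presomitic mesoderm, read 20.16 ± 4.25 in RA and 21.15 ± 5.4 with Ag1.3 (SD, n = 3 each), around the top of the range of the unspiked controls. The smallest p among these 4 were those of Hes2 at 0.35 (adjusted p = 0.493) and Bhlhe40 at -0.11 (adjusted p = 0.622).

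Of the marker lists not described so far, 0 of 9 cell cycle genes, 0 of 7 astroglial, 0 of 6 neural crest and 0 of 5 blood genes passed in limma's test, with 0, 3, 1 and 1 at an unadjusted p under 0.05. Lowest in p were Mcm5 at -0.18 and Bub1 at -0.16, Slc1a2 at 0.53 and Slc1a3 at 0.32, Erbb3 at -0.58 and Tfap2b at -0.17, and Cd68 at -0.36, on the log2 scale, and Ptprc, next after Cd68, was in the range of the unspiked controls. The neural progenitor list had 0 of 10 past the threshold, 4 at an unadjusted p under 0.05 and a median log2 fold change of 0.15, with Pax6 at -0.48 (adjusted p = 0.0531) and Nes at 0.27 lowest in p. Of 8 pluripotency genes Pou5f1 fell, and the median was -0.65, with all 8 log2 fold changes below 0. Nanog, Zfp42, Tdgf1, Dppa5a and Dppa4 did not pass but lay at an unadjusted p under 0.05. Of 8 endoderm genes Sox17 and Krt8 fell, and Epcam at -0.593 lay at an unadjusted p under 0.05 without passing.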
